A study of Mus musculus with 6 samples.

Results

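NF-kappaB subunits and their inhibitors were examined at the RNA level in CD8+ T cells sorted for low CD44, with sanroque mice set against wild-type mice. The set was a list of 9 gene symbols: the subunit genes Nfkb1, Nfkb2, Rela and Relb, the inhibitor genes Nfkbia, Nfkbib and Nfkbie, and the regulators Tnfaip3 and Bcl3. A gene was measured when a probe set carried its symbol and no other, and 8 of the 9 were measured, among 19938 genes in all. Nfkb1, which encodes p105 and p50, had no such probe set in the annotation used and was not analysed here. Each of the 8 had a single usable probe set, so no choice between probe sets was made.

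The sanroque group held 3 arrays from mice homozygous for the san allele of Roquin, labelled Roquin san/san, and the wild-type group held 3 arrays from Roquin +/+ mice. Both groups were 10-week-old C57BL/6 animals, and no treatment was labelled for either. Roquin, encoded by Rc3h1, is an RNA-binding protein that represses mRNAs such as Icos, and the san allele is a germline point mutation, so every cell of the mouse carries it. Cells were sorted from spleen and lymph node suspensions, and Affymetrix arrays gave 1 intensity per probe set.

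NF-kappaB factors are dimers of Rel-family proteins that inhibitor proteins of the IkappaB family hold in the cytoplasm until the IKK kinase complex marks those inhibitors for destruction. In T cells the antigen receptor reaches IKK through adaptors that include BCL10 and MALT1, while receptors of the TNF family can also act through the kinase NIK to process the Nfkb2 product p100 into p52, the partner of RelB. Several inhibitor genes, among them Nfkbia and Tnfaip3, are themselves activated by NF-kappaB, which closes a negative feedback loop.

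The start regions of 4 members are shown: Bcl3 passed the test between genotypes, while Nfkb2, Nfkbia and Tnfaip3 did not. Each run goes from 130 bases before the annotated transcription start to 30 bases after it, and capitals mark matches to the kappaB consensus decamer, the sequence that NF-kappaB dimers bind, on either strand. Sequences and coordinates are from RefSeq on GRCm38.p6.
Bcl3, chr7:19822726-19822885, minus strand: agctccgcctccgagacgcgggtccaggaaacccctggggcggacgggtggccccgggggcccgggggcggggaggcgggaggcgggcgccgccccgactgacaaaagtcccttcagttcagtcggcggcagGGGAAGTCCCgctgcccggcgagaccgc
Nfkb2, chr19:46304607-46304766, plus strand, the most upstream of its annotated starts: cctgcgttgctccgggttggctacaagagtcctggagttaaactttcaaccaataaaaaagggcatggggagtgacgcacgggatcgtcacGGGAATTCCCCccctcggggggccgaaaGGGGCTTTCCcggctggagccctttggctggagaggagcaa
Nfkbia, chr12:55492618-55492777, minus strand: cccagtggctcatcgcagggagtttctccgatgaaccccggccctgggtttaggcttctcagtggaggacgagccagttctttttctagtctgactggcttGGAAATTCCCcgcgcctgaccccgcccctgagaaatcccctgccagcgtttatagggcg
Tnfaip3, chr10:19015381-19015540, minus strand, the more upstream of its annotated starts: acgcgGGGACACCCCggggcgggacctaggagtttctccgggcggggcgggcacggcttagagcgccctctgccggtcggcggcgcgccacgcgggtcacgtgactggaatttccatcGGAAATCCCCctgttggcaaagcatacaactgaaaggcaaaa
The Bcl3 match begins 3 bases into the transcript, counting the first transcribed base as 1. In Nfkb2 the matches at this start begin at -39, -38 and -11, the first pair overlapping. The Nfkbia match begins at -29, and the Tnfaip3 matches at -125 and -12. Over windows from 250 bases before to 50 after a start, 5 of the 7 members with a window held a match (Nfkb2, Nfkbia, Nfkbie, Tnfaip3 and Bcl3), and Rela and Nfkbib did not. All 4 runs shown hold a match, and the runs of Rela, Nfkbib and Nfkbie are not shown. Some members had more than 1 annotated start, and a match at any of them was counted. By window, 7 of the 10 member windows held a match, against 8.46% of all 32851 windows of this length. The Nfkb2 windows at starts 46305695 and 46305930 overlap and share a match, so the windows are not separate observations. No share by gene was computed over all genes, so the 5 of 7 has no reference. The other annotated start of Tnfaip3, not shown, had no match. A match is a description of the letters and not a measured binding site.

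Bcl3 was the single member that passed the test between genotypes, and it was 2.00-fold higher in sanroque cells. It encodes an atypical, mostly nuclear IkappaB protein that binds p50 or p52 dimers on DNA. Its level was 9.06, 8.98 and 8.85 in sanroque replicates 1 to 3, against 8.13, 7.93 and 7.82 in wild-type replicates 1 to 3 (log2 intensity). The groups were separated by a gap of 0.72, wider than the range within either genotype. The means were 8.96 ± 0.11 in sanroque and 7.96 ± 0.16 in wild type (SD, n = 3 each). The log2 fold was 1.00 ± 0.10 (SE, 95% interval 0.77 to 1.24, limma, Benjamini-Hochberg adjusted p = 0.00388). By p-value Bcl3 ranked 89 of the 19938 genes, and 287 genes had a larger positive fold. In bulk RNA, a shift in which cells are present and a shift in RNA per cell cannot be told apart.

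Across the set, 1 of 8 members was higher and 0 were lower at a Benjamini-Hochberg adjusted p below 0.05 in limma, where 5.77% of all genes were called, 3.26% higher and 2.51% lower. At an unadjusted p below 0.05, 3 of 8 members were counted, against 18.9% of all genes. The values of the genotypes did not overlap in 3 of the 8, higher in sanroque for Bcl3 and Tnfaip3 and lower for Nfkbib, where 22.7% of all genes did not overlap, 9.46% with sanroque higher and 13.2% with sanroque lower. The median log2 fold of the 8 was 0.18, and that of all genes was -0.03. With so few genes, these counts describe the members and say nothing particular about the family.

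**Figure D1:**
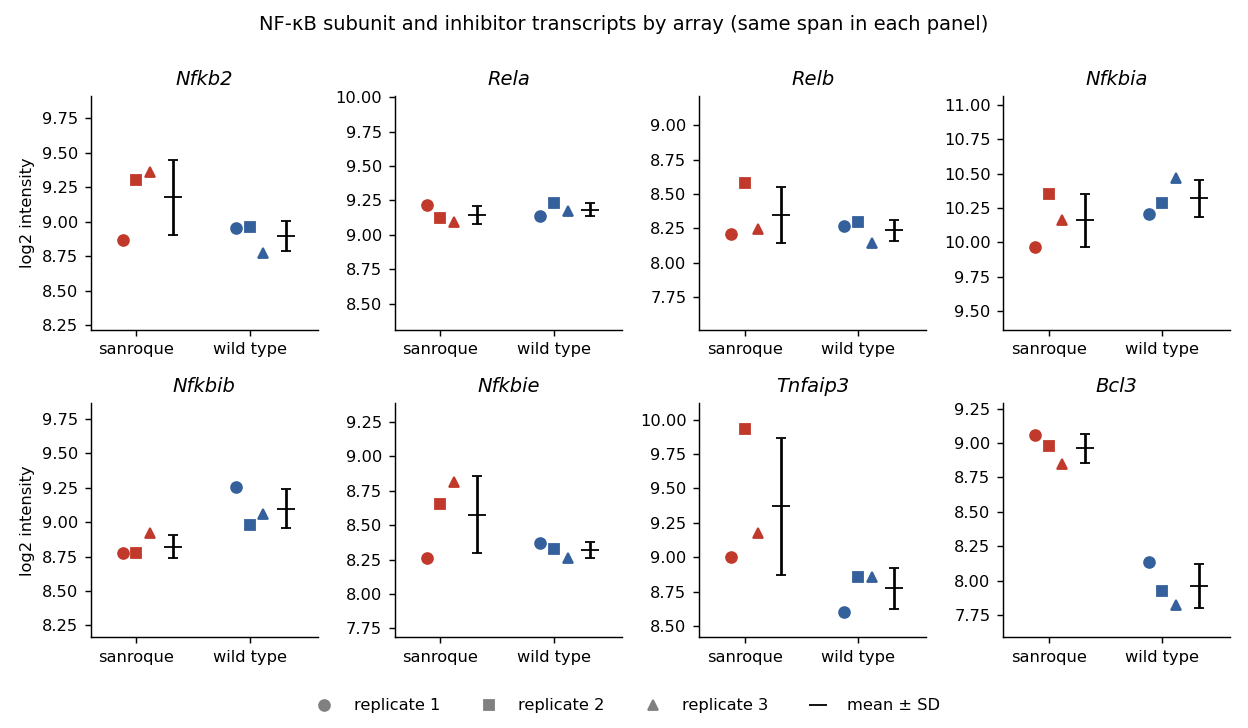
Log2 intensity of each of the 8 measured members in the 3 sanroque arrays (left of each panel) and the 3 wild-type arrays (right), with the marker shape giving the replicate number and the black bar the mean ± SD. The vertical span is the same in each panel. Bcl3 separates the genotypes by 0.72, while sanroque replicate 2 stands at 9.94 for Tnfaip3, above the other sanroque arrays.

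The measured subunit genes gave no call in limma: 0 of 3 passed, also at an unadjusted p below 0.05. Rela, which encodes p65, the main activating subunit of the canonical pathway, was the least variable. Its log2 intensity was 9.22, 9.12 and 9.09 in sanroque and 9.14, 9.23 and 9.18 in wild-type arrays. The groups overlapped, and the log2 fold was -0.04 with a 95% interval of -0.20 to 0.12 (limma, Benjamini-Hochberg adjusted p = 0.889).

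Nfkb2, which encodes p100, at once a subunit precursor and an inhibitor of RelB, read 8.87, 9.31 and 9.36 in sanroque arrays, against 8.96, 8.96 and 8.77 in wild-type arrays. Sanroque replicates 2 and 3 lay above all wild-type arrays, and sanroque replicate 1 lay within their range. The log2 fold was 0.28 ± 0.14 (limma, Benjamini-Hochberg adjusted p = 0.354). Its 95% interval ran from -0.05 to 0.61. Without sanroque replicate 1 the log2 fold was 0.44 (limma, Benjamini-Hochberg adjusted p = 0.0708), so that array moved the value by over 1.5 times without changing the call.

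Relb, the partner of p52 in the noncanonical pathway, read 8.21, 8.58 and 8.25 in sanroque arrays and 8.27, 8.29 and 8.15 in wild-type arrays. Only sanroque replicate 2 was above the wild-type range. The log2 fold was 0.11, with a 95% interval of -0.15 to 0.37 (limma, Benjamini-Hochberg adjusted p = 0.733), and it was -0.0061 without sanroque replicate 2.

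None of the classical cytoplasmic inhibitor genes Nfkbia, Nfkbib and Nfkbie passed in limma, and 1 of the 3, Nfkbib, had an unadjusted p below 0.05. Nfkbia, which encodes IkappaB-alpha, the inhibitor that is degraded and resynthesised fastest after stimulation, read 9.97, 10.35 and 10.16 in sanroque and 10.20, 10.29 and 10.47 in wild-type arrays. These ranges overlapped, with a log2 fold of -0.16 and a 95% interval of -0.43 to 0.11 (limma, Benjamini-Hochberg adjusted p = 0.590). The fold was -0.06 without sanroque replicate 1, -0.26 without sanroque replicate 2, -0.09 without wild-type replicate 3 and -0.0045 with array weights, and did not pass in any of these fits.

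Nfkbib, which encodes IkappaB-beta, a slower inhibitor, read 8.77, 8.78 and 8.92 in sanroque arrays, against 9.25, 8.98 and 9.06 in wild-type arrays. Every sanroque value was below every wild-type value, by a gap of 0.060, but the difference did not pass over all genes (log2 fold -0.27 ± 0.09, 95% interval -0.49 to -0.06, limma, Benjamini-Hochberg adjusted p = 0.150). With each array weighted by its estimated quality the value was -0.43 and passed (limma, Benjamini-Hochberg adjusted p = 0.00467). That fit gave wild-type replicate 1, which had the highest Nfkbib level, a weight of 7.99, and the other arrays 0.344 to 1.72.

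Nfkbie, which encodes IkappaB-epsilon, followed the same arrays as Nfkb2. It read 8.26, 8.65 and 8.81 in sanroque arrays and 8.37, 8.33 and 8.26 in wild-type arrays. Sanroque replicates 2 and 3 were above the wild-type range and replicate 1 was within it. The log2 fold was 0.26 (95% interval -0.07 to 0.58, limma, Benjamini-Hochberg adjusted p = 0.406), and it was 0.41 without sanroque replicate 1 and 0.14 without sanroque replicate 3 (limma, Benjamini-Hochberg adjusted p = 0.0713 and 0.718).

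Tnfaip3 encodes A20, a ubiquitin-editing enzyme that shuts off signaling upstream of IKK. It read 9.0, 9.94 and 9.17 in sanroque arrays, against 8.60, 8.86 and 8.86 in wild-type arrays. All sanroque values were above all wild-type values, by a gap of 0.14, and sanroque replicate 2 was 0.76 above the next array. The log2 fold was 0.60 ± 0.23, or 1.51-fold, with a 95% interval of 0.05 to 1.14, and it stayed above the threshold (limma, Benjamini-Hochberg adjusted p = 0.212). It was 0.31 without sanroque replicate 2 (limma, Benjamini-Hochberg adjusted p = 0.285). With array weights it was 0.93 and passed (limma, Benjamini-Hochberg adjusted p = 0.0128). In that fit, which called 4733 of all genes, wild-type replicate 1, the lowest for Tnfaip3, had a weight of 7.99. Sanroque replicate 2, the highest for Tnfaip3, had the next largest weight, 1.72.

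The spread between arrays was larger in the sanroque group for 6 of the 8 members, Nfkbib and Bcl3 being the exceptions. Over all genes the sanroque SD was the larger in 45.6%. It reached 0.50 for Tnfaip3, 0.28 for Nfkbie and 0.27 for Nfkb2, against 0.15, 0.06 and 0.11 in wild type (SD of log2 intensity, n = 3 each). With 3 arrays per genotype, this comparison of spreads is a description with no test.

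**Figure D2:**
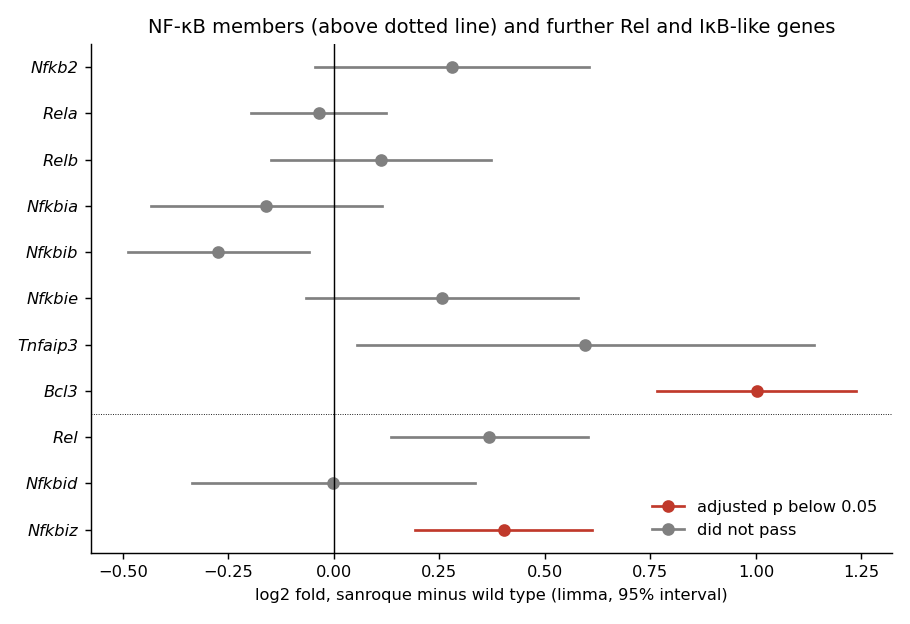
Log2 fold, sanroque minus wild type, with limma's 95% interval (horizontal lines) for the 8 members and, under the dotted line, for Rel, Nfkbid and Nfkbiz; red marks an adjusted p below 0.05. Bcl3 at 1.00 and Nfkbiz at 0.40 passed, and the intervals of Nfkb2, Rela, Relb, Nfkbia, Nfkbie and Nfkbid include 0.

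Bcl3 kept its call under all 13 alternatives, with adjusted p between 0.000456 and 0.0463 (limma, Benjamini-Hochberg). Leaving out each array in turn gave log2 folds of 0.93 to 1.09. The highest adjusted p came without both sanroque replicate 1 and wild-type replicate 2, where 2 arrays per genotype remained and the log2 fold was 0.94. None of the measured member subunit genes, Nfkb2, Rela and Relb, passed under any of these alternatives.

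**Figure D3:**
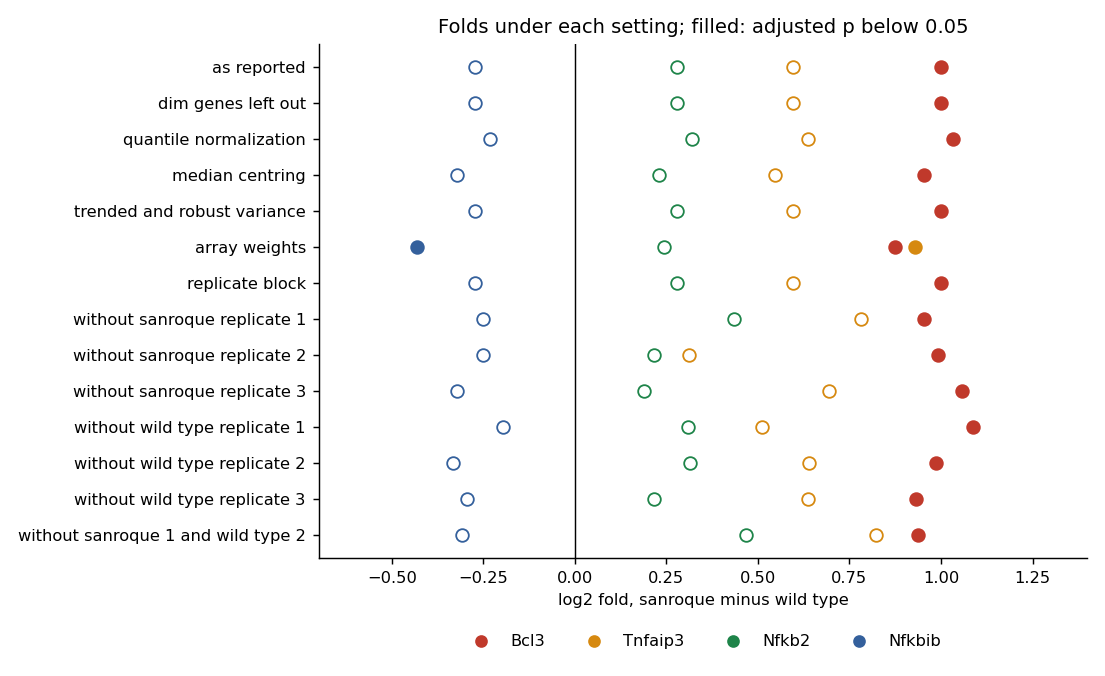
Log2 fold of Bcl3, Tnfaip3, Nfkb2 and Nfkbib (colours) as reported and under each alternative (rows), with filled points where the adjusted p was below 0.05. Bcl3 stays between 0.87 and 1.09 and is filled in each row, while Tnfaip3 and Nfkbib are filled with array weights alone.

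Transcripts on the marker lists of several other cell types moved with genotype on the same arrays. All 10 measured B cell markers had positive folds and 6 passed, and 13 of 14 monocyte, macrophage and neutrophil markers passed, with median log2 folds of 1.47 and 2.29. Summed intensity of the B cell list was 7103 to 8765 in sanroque and 1940 to 4663 in wild type, and that of the myeloid list was 7558 to 12223 in sanroque and 849 to 1494 in wild type. None of these markers was at 0, and array intensities keep a background that has no true zero. Among plasma cell, CD4 T cell, NK cell and dendritic cell markers, 3 of 5, 3 of 6, 2 of 5 and 1 of 6 passed, all higher. The calls were Jchain, Mzb1 and Xbp1 for plasma cells, and Ctla4, Zbtb7b and Ikzf2 for CD4 T cells. Klre1 and Eomes passed on the NK cell list and Itgax on the dendritic cell list. Whether these transcripts came from the listed cell types or from the sorted CD8 T cells was not tested. Sdc1, Tnfrsf17, Cd4, Foxp3, Cd40lg, Ncr1, Klrb1c, Klra8, Flt3, Xcr1, Siglech, Zbtb46 and Clec9a did not pass. Over all genes, 3.26% were called higher. Summed intensity of the CD8 T cell list was 36838 to 38344 in sanroque and 40506 to 41853 in wild type. All 7 measured markers had negative folds, and 4 did not overlap between genotypes. Of all genes, 13.2% did not overlap with sanroque lower. Cd8a, which defines the sorted cells, had the fold nearest 0, with means of 13.00 in sanroque and 13.02 in wild type. Cd3d, a chain of the T cell receptor complex, fell by 0.52 on the log2 scale, and the other 6 measured CD8 T cell markers did not pass.

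B cells and myeloid cells also express Bcl3, Tnfaip3 and Nfkb2, and the part of such cells in the differences was not tested. Within wild type, replicate 2 had the highest B cell list median, 7.97 against 7.12 and 6.83 in replicates 1 and 3, and the highest myeloid list median, 6.45 against 5.74 and 5.70. Bcl3 read 7.93 in that array, between the other wild-type arrays. Within sanroque, summed intensity of the myeloid list was 12223, 8918 and 7558 in replicates 1, 2 and 3. Bcl3, at 9.06, 8.98 and 8.85, had the same order. The myeloid list medians of these arrays, at 8.55, 8.08 and 8.42, had another order. Sanroque replicate 2 had the lowest medians of both lists, 8.80 for B cells and 8.08 for myeloid cells, and the highest Tnfaip3 level. By summed intensity, sanroque replicate 2 was the lowest for B cells, at 7103, and sanroque replicate 3 for myeloid cells, at 7558.

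**Figure D4:**
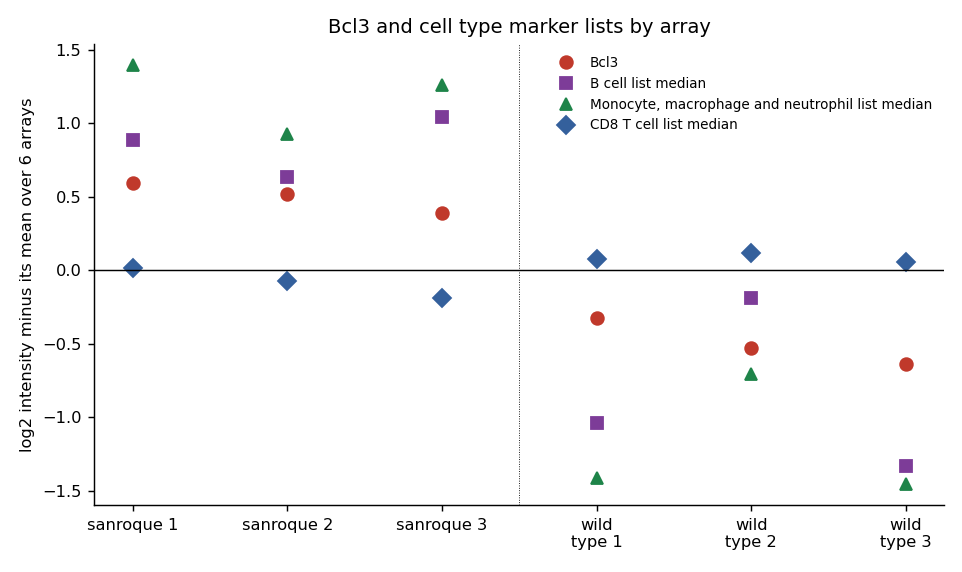
Log2 intensity of Bcl3, and of the medians of the B cell, myeloid and CD8 T cell marker lists, each minus its own mean over the 6 arrays (vertical axis), in sanroque arrays (left) and wild-type arrays (right). The 3 sanroque arrays lie above the 3 wild-type arrays for Bcl3 and for the B cell and myeloid lists.

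The genes whose profile over the 6 arrays was closest to that of Bcl3 were Hpse, which encodes heparanase, and Prss34, which encodes a mast cell and basophil protease. Their mean-centred log2 values differed from those of Bcl3 by root mean squares of 0.108 and 0.110. Hpse had a log2 fold of 1.17 and Prss34 of 0.90 (limma, Benjamini-Hochberg adjusted p = 0.00281 and 0.00388). Both were chosen for closeness to Bcl3 on these same arrays, so folds and calls like those of Bcl3 follow from the choice. Hpse read 6.32, 6.46 and 6.16 in sanroque and 5.29, 5.11 and 5.03 in wild-type arrays. Prss34 read 6.16, 6.06 and 5.88 in sanroque and 5.17, 5.05 and 5.18 in wild-type arrays. Both lay nearer the dim end of the scale than Bcl3, where background can make folds too small.

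Among the Rel and IkappaB-like genes outside the list, Nfkbiz was higher in sanroque and Rel and Nfkbid did not pass. Rel encodes c-Rel, the subunit most tied to lymphocyte activation. It read 10.16, 10.04 and 10.15 in sanroque arrays, against 9.62, 9.95 and 9.67 in wild-type arrays. All sanroque values were higher, by a gap of 0.092, with a log2 fold of 0.37 ± 0.10 (95% interval 0.13 to 0.60, limma, Benjamini-Hochberg adjusted p = 0.0846). Rel passed without wild-type replicate 2 (log2 fold 0.47, limma, Benjamini-Hochberg adjusted p = 0.0412), under quantile normalization (0.40, adjusted p = 0.0439) and with array weights (0.44, adjusted p = 0.00477). The array weights gave wild-type replicate 1, the lowest for Rel, a weight of 7.99. Nfkbiz encodes the nuclear inhibitor-like protein IkappaB-zeta and is a reported Roquin target. It read 8.74, 8.86 and 8.94 in sanroque and 8.57, 8.43 and 8.34 in wild-type arrays. Its call was narrow (limma, Benjamini-Hochberg adjusted p = 0.0477) and was lost when any 1 of the 6 arrays was left out, at adjusted p between 0.0696 and 0.158. Nfkbid, another atypical IkappaB gene and reported Roquin target, read 7.97, 8.20 and 8.55 in sanroque and 8.18, 8.33 and 8.20 in wild-type arrays, with a log2 fold of -0.0015.

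The signaling steps that lead to NF-kappaB gave no call. For scale, 5.77% of all genes were called, and 18.9% had an unadjusted p below 0.05. Of 10 measured IKK and upstream kinase genes, 0 passed in limma and 2 had an unadjusted p below 0.05, with a median log2 fold of 0.03. Those were Tab2, an adaptor of the TAK1 kinase, at 0.23, and Ikbkb, the catalytic IKK-beta subunit, at -0.31. Tab2, with the smaller p, read 10.95, 10.95 and 10.86 in sanroque and 10.67, 10.68 and 10.71 in wild-type arrays (limma, Benjamini-Hochberg adjusted p = 0.0864). Ikbkb read 9.91, 9.97 and 10.24 in sanroque and 10.30, 10.32 and 10.41 in wild-type arrays (limma, Benjamini-Hochberg adjusted p = 0.142). Neither gene overlapped between genotypes, as was so for 22.7% of all genes. Of 12 measured genes of the BCL10-MALT1, TRAF and cIAP adaptors, 0 passed and 4 had an unadjusted p below 0.05, with a median of -0.02. The smallest p-values were those of Sharpin, a subunit of the linear ubiquitin ligase, at -0.29, and Birc3, which encodes cIAP2, at 0.24 (limma, Benjamini-Hochberg adjusted p = 0.0887 and 0.0957). Of 8 A20 partner and deubiquitinase genes, 0 passed and 4 had an unadjusted p below 0.05, with a median of 0.19. Tnip3, an A20-binding protein gene, at 0.26, and Tnip2, at 0.42, were the nearest (adjusted p = 0.0711 and 0.164). Tnip3 lay at 4.32, 4.31 and 4.25 in sanroque and 4.10, 3.97 and 4.03 in wild-type arrays, close to the lowest log2 intensity of 3.26 on any array.

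Among 24 genes reported as NF-kappaB targets in various cells, 6 were higher in sanroque, 0 were lower and 18 did not pass (limma, adjusted p below 0.05), with a median log2 fold of 0.18. At an unadjusted p below 0.05, 13 were counted. Over all genes, 3.26% were called higher, 2.51% were called lower, and 18.9% had an unadjusted p below 0.05. Ccl3, which encodes an inflammatory chemokine of effector T cells and macrophages, read 7.76, 10.35 and 9.20 in sanroque arrays, against 5.06, 5.89 and 5.86 in wild-type arrays (log2 fold 3.50 ± 0.60). Sanroque replicate 2 was the highest, as for Tnfaip3. Tnfaip2, a TNF-induced gene that myeloid cells also express, read 6.52, 7.05 and 7.24 in sanroque and 5.17, 5.28 and 5.35 in wild-type arrays (log2 fold 1.67 ± 0.18). The others called were Gadd45b, a stress-response gene (0.84), Cd83, an activation marker of lymphocytes and dendritic cells (0.73), Il2ra, the interleukin 2 receptor alpha chain (0.65), and Bcl2l1, which encodes the survival protein BCL-XL (0.36).

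**Figure D5:**
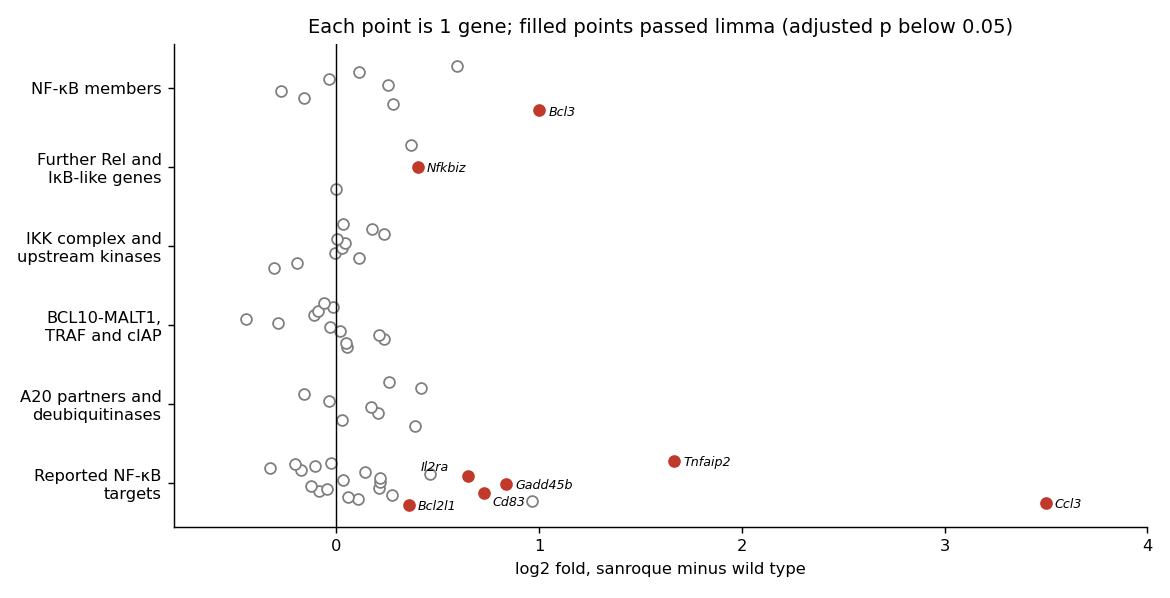
Log2 fold, sanroque minus wild type, of each measured member and pathway gene (1 point per gene, spread vertically within its list for visibility), with filled red points for genes past an adjusted p of 0.05. Calls are Bcl3 among members, Nfkbiz among IkappaB-like genes and 6 reported targets, and the other lists hold none.

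The myeloid and B cell marker lists moved in the same direction as these targets, and their part was not tested. Tnfaip2 passed in each of the 6 fits that left out an array. Ccl3 did not pass without wild-type replicate 1, 2 or 3 (limma, Benjamini-Hochberg adjusted p = 0.105, 0.0644 and 0.0523) or with a trended and robust variance (0.0517), and Cd83 did not without wild-type replicate 1 or 2 (0.0853 and 0.0562). Il2ra passed in 2 of the 6 fits (without sanroque replicate 1 or 3), Gadd45b in 1 (without sanroque replicate 1) and Bcl2l1 in 1 (without sanroque replicate 3). The number of targets called was 3 without sanroque replicate 2, and 1, 1 and 2 without wild-type replicates 1, 2 and 3. Tnf, itself both an inducer and a target of the pathway, read 8.0, 7.98 and 8.18 in sanroque and 7.99, 8.23 and 8.02 in wild-type arrays (log2 fold -0.03, limma, Benjamini-Hochberg adjusted p = 0.945). Ltb, which encodes a lymphotoxin chain, had a log2 fold of -0.33, and its sanroque values of 11.19, 11.26 and 11.53 lay below the wild-type values of 11.68, 11.63 and 11.65 without passing (limma, Benjamini-Hochberg adjusted p = 0.109). Both were named after their values were seen.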

How the data were processed

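RNA of sorted cells was labelled as biotinylated cRNA for Affymetrix arrays, per the labels' protocols. What the authors deposited is a linear intensity for each probe set on each array, from 9.56 to 31996. The submitters' processing notes name Partek without saying what it did. For background correction and normalization, the method was not given in the sources used here. Array medians ran from 53.6 to 56.9 and no compared quantile differed by over 0.14 on the log2 scale, so log2 values were used as they stood. The number of arrays limits the precision.

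The platform annotation gave exactly 1 gene symbol for 21789 of 35399 probe sets, more than 1 for 1621, and no entry for 11989. The GRCm38.p6 gene table updated symbols and matched 19856 of 19938 genes. The brightest probe set stood for each gene.

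All 19938 genes were fitted with limma 3.58.1 in R 4.3.3 (lmFit, eBayes), two-sided, unpaired, and p-values were adjusted over all of them by Benjamini-Hochberg. Log2 folds are sanroque minus wild type. The fit was tested on simulated data. The labels call the arrays biological replicates. Alternatives changed the dim-gene filter, normalization, variance model, array weights, replicate block and arrays used. Motif matches were found with Python 3.11.15, and figures drawn with matplotlib 3.10.9.

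Named genes were all members, Rel, up to 6 called genes per pathway list (or the 2 with the smallest p), the 2 genes closest in profile to each called member, and from each marker list the brightest and smallest-p genes, of which those bearing on a result are given. Members and lists were chosen with earlier results of these data known.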

Additional observations from a re-analysis of the deposited data

How the results depend on the processing

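Leaving out dim genes, the trended and robust variance and the replicate block leave each fold unchanged by construction, so only the call could change. The 8 member folds kept their direction and their side of the threshold in 100 of 104 comparisons with the 13 alternatives. The exceptions were Rela, at 0.0058 under quantile normalization, Relb, at -0.0061 without sanroque replicate 2 (and up to 0.18 with other single arrays left out), and with array weights Nfkbib (-0.43) and Tnfaip3 (0.93), which then passed, making 3 members called. The cause was not tested. Swapping in further probe sets was not run, since each member had 1. Over all genes, 1151 calls became 631 with median centring, 4733 with array weights, 353 without sanroque replicate 1 and wild-type replicate 2 together, and 218 to 1315 with single arrays left out.

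Deviations of same-numbered arrays from their group means correlated at -0.0536, -0.159 and -0.365 across genes, none of them positive. With no reference for what a true pairing would give, these values cannot decide whether same-numbered arrays were handled together. With the replicate block 301 genes were called, 3 of the targets and 0 of the Rel and IkappaB-like genes, while Bcl3 kept its call.

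Called targets numbered 3 with median centring, 14 with array weights, 3 without both arrays, and 1 to 7 with single arrays left out. Called Rel and IkappaB-like genes numbered 2 under quantile normalization and with array weights, 0 with median centring, with a trended and robust variance and without both arrays, and 0 to 1 with single arrays left out. The A20 partner list had 1 call under quantile normalization, 1 with the trended variance and 5 with array weights. The adaptor list had 2 under quantile normalization, 4 with array weights and 0 to 1 with single arrays left out, and the kinase list 2 with array weights and 0 to 1. Signal over background limits the dim genes, such as Tnip3 and Il2ra.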
